A study of Mus musculus with 8 samples.

Results

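Protein folding genes were followed in sorted mouse CD8 T cells: the chaperones of the cytosol, the ring-shaped chaperonin of the cytosol, the chaperones of mitochondria, and the folding, sensing and disposal genes of the endoplasmic reticulum (ER) that make up the unfolded protein response. The genes are a list of 46 symbols. A gene was read from the rows of the array table that carry exactly 1 gene symbol, with the brightest row over all 8 arrays kept for each gene. By this rule 42 of the 46 genes were found among the 22180 genes with such a row, and 39 of them were among the 12019 genes bright enough to be tested (mean log2 signal over the 8 arrays of at least 5.24, the median of the table). Hsp90ab1, Hsf1, Dnaja1 and Pdia4 were not analysed here, and Hspa1a, Hspa1b and Hspb1 were below the filter.

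Female mice, with the strain written C56BL/6 in the sample labels and C57BL/6 in the protocols, carried transplanted leukaemia cells from Eµ-TCL1 mice. In that model the TCL1 oncogene is driven in B cells, and its leukaemia resembles human chronic lymphocytic leukaemia. From week 3 after transplantation they received an antibody that blocks the interleukin 10 receptor (anti-IL-10R, 4 arrays) or the matching isotype antibody (isotype, 4 arrays) for 2 weeks by intraperitoneal injection, and spleen cells were taken at week 5. All 8 arrays thus come from leukaemia-bearing, antibody-injected animals, and no untreated or leukaemia-free group was part of the comparison. The cells were sorted as PD-1hi, CD44int-hi and CD127low among Lin-, TCRb+ and CD8+ cells, so they are antigen-experienced effector cells with high PD-1, and total RNA was hybridised to Mouse Gene 2.0 ST arrays. The labels used here give no age and do not say whether each array is a separate animal or a pool, so p-values measure the spread between these samples, which may be technical.

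Newly made proteins are folded by chaperones that spend ATP. The HSP70 and HSP90 families work in the cytosol with co-chaperones such as the DNAJ proteins, and heat shock factor 1 switches on many of their genes when unfolded proteins accumulate. Mitochondria have their own HSP70, HSP60 and HSP10, and the ER has BiP (Hspa5), disulfide isomerases and the lectin chaperones calnexin and calreticulin. ER stress is sensed by IRE1 (Ern1), PERK (Eif2ak3) and ATF6. IRE1 splices the Xbp1 messenger RNA, and spliced XBP1 and cleaved ATF6 switch on genes of ER folding and of ER-associated degradation. T cells that are stimulated to grow, divide and secrete raise their demand on these systems.

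The genes of the list that separated the treatment groups were 3 mitochondrial chaperones, 2 ER folding genes and the transcription factor gene Xbp1, all lower with anti-IL-10R. With all 8 arrays, Hspa9, Hspd1, Hspe1, Pdia6, Creld2 and Xbp1 were lower on each anti-IL-10R array than on every isotype array, which made 6 of the 39 tested genes, against 5.99% of all tested genes. No gene of the list was higher without overlap, against 9.32% of all tested genes. None of the 39 passed limma's moderated test at an adjusted p of 0.05, which called 2.53% of all tested genes (Benjamini-Hochberg over 12019 genes). Other settings of limma on the same 8 arrays called between 0 and 12 of them, all lower. The 12 came with arrays weighted by their quality, against 6.78% of all tested genes lower, and quantile normalization gave 5, against 3.55%. The weight was 0.142 for isotype replicate 1 and 0.857 to 1.801 for the other arrays. The weighted fit thus came close to leaving isotype replicate 1 out, and is not separate from the fit without it. At an unadjusted p under 0.05 there were 9 lower, against 8.53% of all tested genes, and 1 higher, against 11.5%. The 6 separated genes were also the 6 of the list with an adjusted p under 0.10, a limit that 3.49% of tested genes passed on the lower side. Over the list, 30 of 39 differences were below 0, against 45.3% of all tested genes, and the median difference was -0.18 on the log2 scale, against 0.03 over all tested genes.

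How many genes of the list passed depended on 1 isotype array. Isotype replicate 1 correlated at 0.915 to 0.929 with the other arrays over the tested genes, and the other 7 arrays at 0.962 to 0.986 with one another. It was the lowest of the 4 isotype arrays for 79.5% of the list, against 53.6% of all tested genes. Of the isotype arrays it also had the highest mean of the plasma cell, myeloid, CD4 T cell, NK cell and erythroid marker lists. Its mean of the dendritic cell markers (5.51) was the lowest of these arrays, and its mean of the B cell markers (5.20) lay inside their range (5.01 to 5.46). Foxp3, the factor of regulatory T cells, read 7.97 on isotype replicate 1 and 5.46 to 5.95 on the other isotype arrays. Of the same marker list, Ctla4 (7.67) and Zbtb7b (6.08) lay there within the range of the other isotype arrays. Cd4, below the filter, was highest there (5.46). The part of such cells in the results was not tested. Without this array, limma called 10 genes of the list lower (Hsph1, Cct3, Cct5, Hspa9, Hspd1, Hyou1, Pdia6, Sdf2l1, Creld2 and Xbp1) and 0 higher, against 5.9% of all tested genes lower and 3.35% higher. Then 21 of 39 genes were lower without overlap and 1, Dnajb9, was higher, against 14.2% and 11.3% of all tested genes. The median of the list was -0.27 and that of all tested genes -0.01, and 31 of 39 differences were below 0, against 51.1%. The table's signal medians per array were 5.19 to 5.31. The T cell markers were bright as a mean in both groups. The mean of 9 was 10.60 to 10.91 on the isotype arrays, lowest on replicate 1, and 11.01 to 11.09 on the anti-IL-10R arrays. Cd44, a gene of the sort and 1 of the 9, was much dimmer, with means of 6.44 and 6.63. All 9 markers were higher with anti-IL-10R, with a median difference of 0.22 (0.19 without isotype replicate 1). In limma 5 of them had an unadjusted p under 0.05, against 11.5% of all tested genes higher, and 0 were called. Il7r, which encodes CD127, was below the filter in both groups, and Il10ra, the chain of the IL-10 receptor that binds the ligand, had a mean of 9.92 ± 0.05 (SD, n = 4) and 10.43 ± 0.22 (SD, n = 4). In RNA from a sorted population, fewer cells of a kind and less RNA per cell cannot be told apart.

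**Figure D1:**
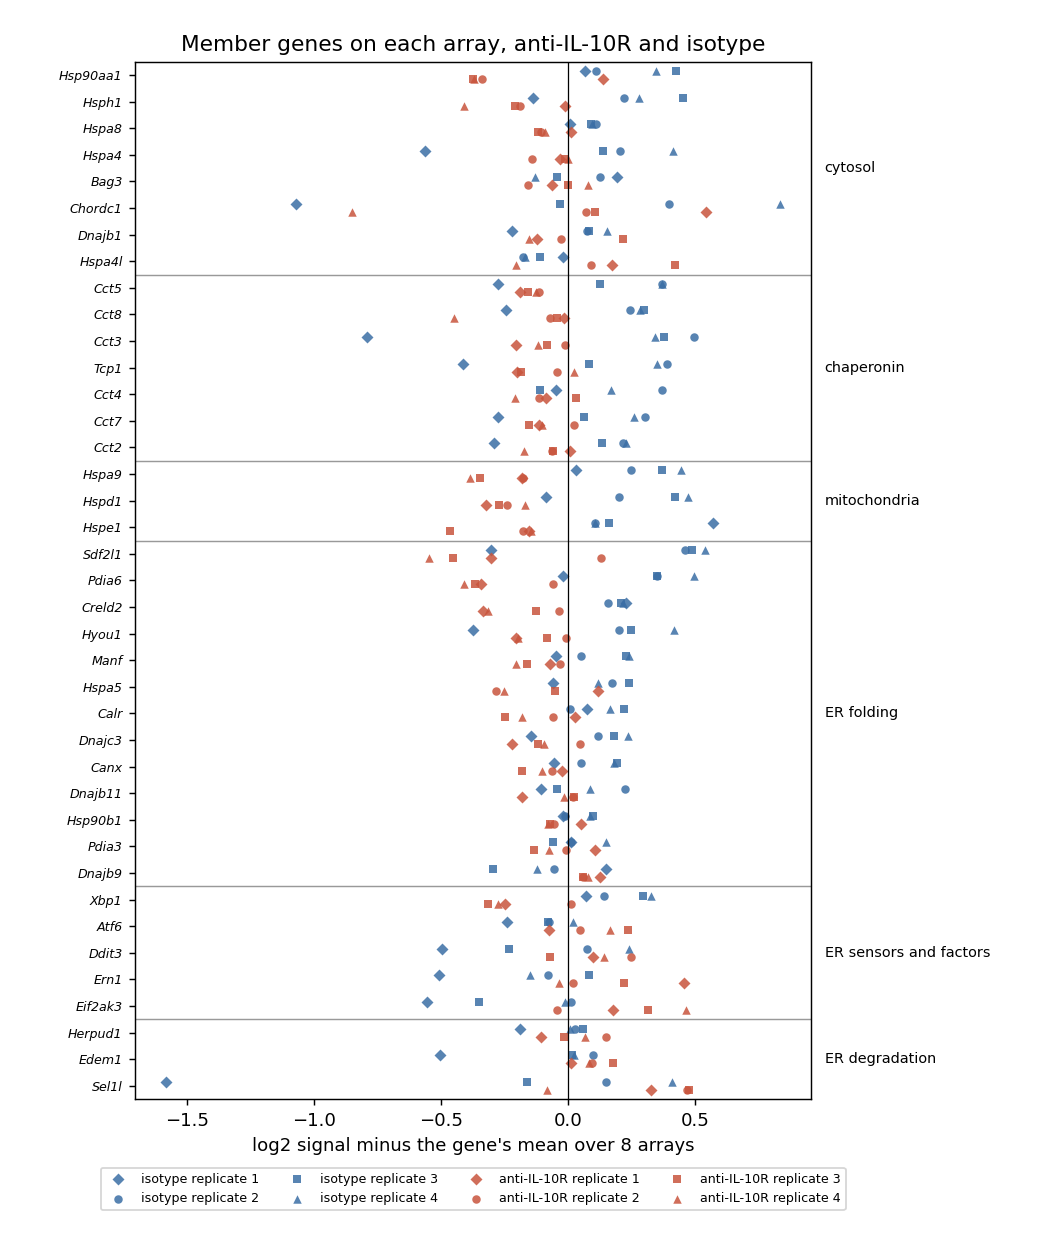
Each point is a gene's log2 signal on 1 array minus that gene's mean over the 8 arrays (horizontal axis), for the 39 tested genes grouped by compartment. Blue symbols are the 4 isotype arrays and red symbols the 4 anti-IL-10R arrays, with 1 shape per replicate. The 3 mitochondrial genes, Pdia6, Creld2 and Xbp1 show no overlap between colours, and the blue diamonds of isotype replicate 1 lie below the other blue symbols for 31 of the 39 genes.

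The 3 mitochondrial chaperones were the only compartment in which the treatment groups separated for every gene. Hspa9 encodes mortalin, the mitochondrial HSP70, which pulls proteins through the inner membrane and folds them. Its log2 signal was 9.66, 9.87, 9.997 and 10.07 on isotype replicates 1 to 4, and 9.45, 9.45, 9.28 and 9.24 on anti-IL-10R replicates 1 to 4. All 4 treated arrays lay below the lowest isotype array. The difference was -0.55 ± 0.12 (SE, n = 4 and 4), or 1.46-fold lower with a 95% interval of 1.21 to 1.76 and a limma adjusted p of 0.0505. Leaving out isotype replicate 1 gave a difference of -0.63 and an adjusted p of 0.00941. The intervals given here and in what follows are per gene and are not adjusted for the number of genes.

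Hspd1 (HSP60) and Hspe1 (HSP10) encode the barrel and the lid of the mitochondrial chaperonin. For Hspd1 the isotype arrays gave 8.68, 8.96, 9.18 and 9.23 and the anti-IL-10R arrays 8.44, 8.52, 8.49 and 8.59. The treated arrays were close together and the isotype arrays spread upwards from replicate 1. Hspd1 was 1.42-fold lower (95% interval 1.15 to 1.75), a log2 difference of -0.50 ± 0.14 with an adjusted p of 0.0826, and -0.62 with 0.00981 without isotype replicate 1. Hspe1 read 10.14, 9.67, 9.73 and 9.67 in the isotype group and 9.41, 9.39, 9.11 and 9.42 in the treated group. Here isotype replicate 1 was the highest array, not the lowest. Its difference was -0.47 ± 0.14, 1.39-fold lower (95% interval 1.12 to 1.72), with an adjusted p that rounds to 0.1 from below, and -0.36 with 0.0649 without isotype replicate 1. As a mean over the 3 genes, each centred on its own mean, the isotype arrays lay between 0.17 and 0.34 and the anti-IL-10R arrays between -0.36 and -0.20. The median of the 3 differences was -0.50, and -0.62 without isotype replicate 1.

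Hspd1 and Hspe1 are neighbours that are read in opposite directions from a shared stretch of DNA, and the groups differed in the same direction for both, so that stretch is shown. In RefSeq's GRCm38.p6 table an Hspd1 start lies at base 55087932 of chromosome 1 and the Hspe1 start at base 55088148. Their promoter windows, 250 bases before to 50 bases after a start, share 285 bases. A run of alternating heat shock units, TTC and GAA with 2 bases between units, lies in this stretch from 89 to 72 bases before the Hspe1 start. It is printed 5′ to 3′ on the plus strand at chr1:55088053-55088082, with the letters of the units in capitals.
Hspd1 and Hspe1: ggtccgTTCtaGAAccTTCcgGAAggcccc

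The 18 bases of the run hold 3 overlapping pairs. A pair, GAANNTTC or TTCNNGAA on either strand, was found in 15.1% of the 32851 promoter windows of the table. A run of 3 units, either TTC, GAA and TTC or GAA, TTC and GAA with 2 free bases between units, was found in 0.603% of them. The table holds windows for 37 of the 46 genes. In the windows of the list, the 3-unit run was present for Hspd1, Hspe1, Hsph1 and Chordc1, and every such match also counts as a pair. Pairs were present for 7 of 10 cytosolic genes, 2 of 6 chaperonin genes, 2 of 2 mitochondrial genes and 1 of 19 ER genes with a window. Counted by window, as the 15.1% is, they were in 8 of 14 cytosolic, 2 of 8 chaperonin, 2 of 3 mitochondrial and 1 of 19 ER windows. The 2 mitochondrial genes share the 1 run printed above. A match describes letters only. Among the 4 genes with a 3-unit run, Hspd1, Hspe1 and Hsph1 differed by -0.50, -0.47 and -0.41, and Chordc1 by -0.06 ± 0.41.

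Other mitochondrial folding genes gave a smaller median. Of 11 tested mitochondrial chaperones, co-chaperones and proteases outside the list, 7 were lower, the median difference was -0.15 (-0.22 without isotype replicate 1), and limma called 0, with 1 lower and 0 higher at an unadjusted p under 0.05. That gene was Grpel1, the nucleotide exchange factor that resets mortalin. Its isotype signals were 8.65, 9.16, 8.97 and 9.17 and its anti-IL-10R signals 8.44, 8.54, 8.26 and 8.74. Only the treated array at 8.74 lay inside the isotype range, above replicate 1. Grpel1 differed by -0.49 ± 0.15 (adjusted p 0.115) and by -0.60 without isotype replicate 1, where it was the 1 gene of that set called. Trap1, the mitochondrial HSP90, differed by -0.20 ± 0.12.

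**Figure D2:**
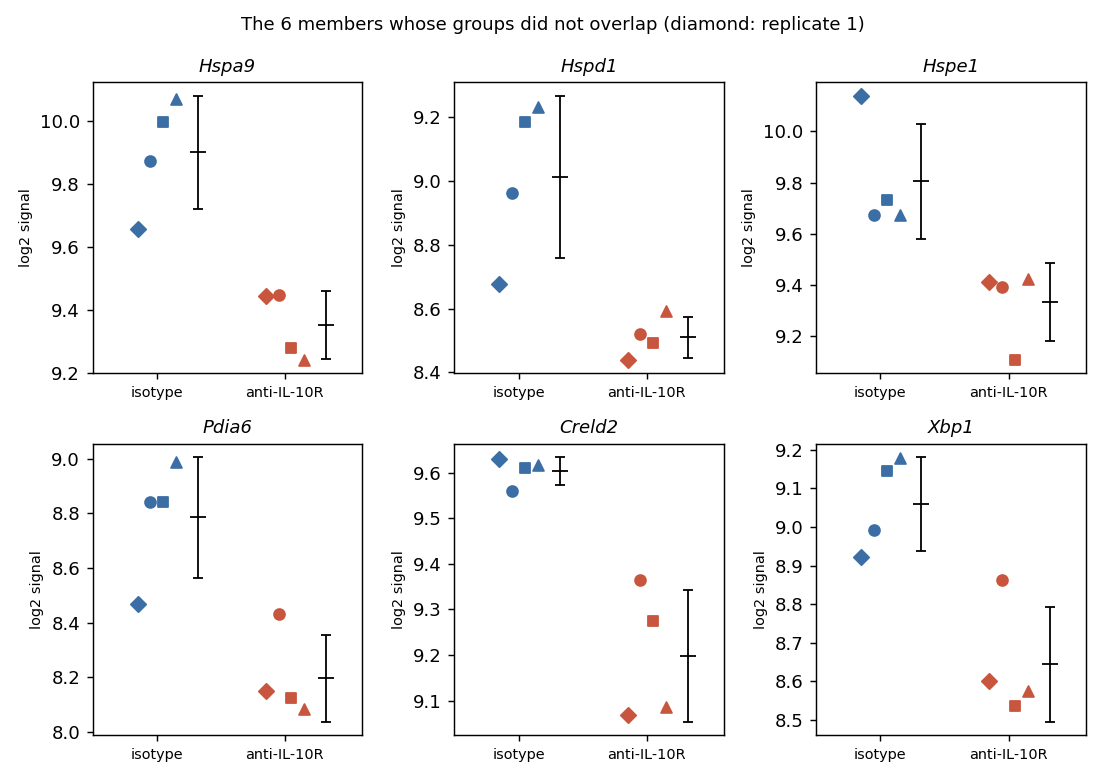
Log2 signal (vertical axis) of the 6 genes whose treatment groups did not overlap, Hspa9, Hspd1, Hspe1, Pdia6, Creld2 and Xbp1, on each of the 4 isotype and 4 anti-IL-10R arrays, with the group mean and SD. Every anti-IL-10R point lies below every isotype point of the same gene, and isotype replicate 1 is the lowest isotype point for Hspa9, Hspd1, Pdia6 and Xbp1 and the highest for Hspe1 and Creld2.

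In the ER, 12 of 13 tested folding genes had a difference below 0, with a median of -0.23, and Pdia6 and Creld2 separated the groups. Pdia6 is a protein disulfide isomerase that also damps the sensors IRE1 and PERK. Its isotype signals were 8.47, 8.84, 8.84 and 8.99 and its anti-IL-10R signals 8.15, 8.43, 8.13 and 8.08. Treated replicate 2 came close to isotype replicate 1, and the other arrays were well apart. Pdia6 was 1.503-fold lower (95% interval 1.21 to 1.87), a difference of -0.59 ± 0.14 with an adjusted p of 0.0595, and -0.69 with 0.00928 without isotype replicate 1. Creld2 is an ER protein induced by ER stress. The isotype arrays read 9.63, 9.56, 9.61 and 9.62 for it, close together, and the treated arrays 9.07, 9.36, 9.28 and 9.09. Creld2 differed by -0.40 ± 0.11, 1.32-fold lower (95% interval 1.12 to 1.56), with an adjusted p of 0.0763. Without isotype replicate 1, which was its highest isotype array, the difference was again -0.40 and the adjusted p 0.0459.

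Sdf2l1, a partner of BiP and its DNAJ co-chaperones, had as large a mean difference as Pdia6 with a wider spread. Its signals were 8.15, 8.91, 8.94 and 8.99 on the isotype arrays and 8.15, 8.58, 7.998 and 7.90 on the anti-IL-10R arrays. Isotype replicate 1 lay at the level of the treated arrays and the other 3 isotype arrays above all of them. The difference was -0.59 ± 0.22 with an adjusted p of 0.173, and -0.79 ± 0.15 with 0.0174 without isotype replicate 1. Hyou1, the large ER HSP70 that recharges BiP, followed the same pattern with -0.25 ± 0.17, and -0.41 with an adjusted p of 0.0364 without that array. On isotype replicate 1 it read 7.71, below all 4 treated arrays (7.88 to 8.08), and on the other isotype arrays 8.29 to 8.51.

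For the general ER chaperones the groups overlapped. Hspa5, which encodes BiP, the master HSP70 of the ER and the brake on its stress sensors, read 9.63, 9.86, 9.93 and 9.81 on the isotype arrays and 9.81, 9.40, 9.64 and 9.43 on the treated arrays. Only 2 of 4 treated arrays lay below all isotype arrays, and the difference was -0.23 ± 0.13 with an adjusted p of 0.344. Calr and Canx, the lectin chaperones that hold glycoproteins, differed by -0.23 ± 0.11 and -0.18 ± 0.10. Manf, a small secreted ER protein, and Dnajc3, a BiP co-chaperone, differed by -0.23 ± 0.11 and -0.19 ± 0.12. Differences were smaller still for Dnajb11, another BiP co-chaperone, at -0.08 ± 0.11, Hsp90b1, the ER HSP90, at -0.08 ± 0.10, and Pdia3, the disulfide isomerase that works with calnexin and calreticulin, at -0.06 ± 0.10. Dnajb9, a BiP co-chaperone that helps to silence IRE1, was the 1 folding gene above 0, at 0.16 ± 0.12. Its 4 treated arrays lay within 8.60 to 8.67 and its isotype arrays within 8.25 to 8.69, and without isotype replicate 1, the highest, the groups did not overlap and the difference was 0.24 with an adjusted p of 0.142. Without the same array Hspa5, Canx, Manf and Dnajc3 were lower with no overlap, as were 14.2% of all tested genes. None of these 4 passed the test.

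The sensors and transcription factors of the unfolded protein response did not move as one. Xbp1 encodes the factor made active by IRE1 splicing, which the array's gene-level signal does not resolve. Its isotype arrays read 8.92, 8.99, 9.14 and 9.18 and its treated arrays 8.60, 8.86, 8.54 and 8.58, with no overlap. Xbp1 was 1.33-fold lower (95% interval 1.11 to 1.599), a difference of -0.42 ± 0.12 with an adjusted p of 0.0891, and -0.46 with 0.0338 without isotype replicate 1.

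The 3 sensors had mean differences of the opposite sign. Eif2ak3, the PERK kinase that slows translation, read 6.57, 7.13, 6.77 and 7.11 on the isotype arrays and 7.30, 7.08, 7.44 and 7.58 on the treated arrays. Treated replicate 2 fell inside the isotype range and the other 3 above it. The difference was 0.45 ± 0.16 with an adjusted p of 0.166, and 0.34 with 0.158 without isotype replicate 1, its lowest array. Ern1, the IRE1 kinase and nuclease, differed by 0.33 ± 0.16 (adjusted p 0.291), and by 0.21 without that array. Atf6 differed by 0.19 ± 0.11, with 3 of 4 treated arrays above all isotype arrays. Ddit3, which encodes the stress factor CHOP that can lead to cell death, differed by 0.21 ± 0.17, and by 0.08 without isotype replicate 1. For all 5 genes of this role isotype replicate 1 was the lowest isotype array. Outside the list, 8 of 11 tested sensors and stress factors were higher, with a median of 0.18 (0.07 without isotype replicate 1), and 0 were called by limma, with 0 in either direction at an unadjusted p under 0.05.

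Genes of ER-associated degradation, which retrieves misfolded proteins for the proteasome, had differences above 0 that rested on isotype replicate 1. Sel1l, the scaffold of the main ubiquitin ligase of the ER, read 6.11, 7.84, 7.52 and 8.10 on the isotype arrays and 8.01, 8.15, 8.16 and 7.60 on the treated arrays. Isotype replicate 1 was far below all other arrays. Its difference was 0.59 ± 0.38 (adjusted p 0.421), and 0.16 without that array. Edem1, a lectin that hands glycoproteins to this route, differed by 0.18 ± 0.14, and by 0.04 without it. Herpud1, an ER membrane protein of the same route, differed by 0.05 ± 0.11, a sign that turned without isotype replicate 1 and with quantile normalization (-0.007 in both). Of 14 tested genes of this route outside the list, 10 were higher, the median was 0.06, and limma called 0, with 0 lower and 2 higher at an unadjusted p under 0.05. Without isotype replicate 1 the sign of that median turned (-0.06), and 1 was called lower and 1 higher. Os9, a lectin that brings misfolded glycoproteins to the ligase, read 9.62, 9.95, 9.81 and 10.08 on the isotype arrays and 10.39, 10.35, 10.34 and 10.55 on the treated arrays, without overlap. Os9 differed by 0.54 ± 0.12 with an adjusted p of 0.0549, and by 0.46 with 0.0282 without isotype replicate 1, where it was the gene called higher.

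**Figure D3:**
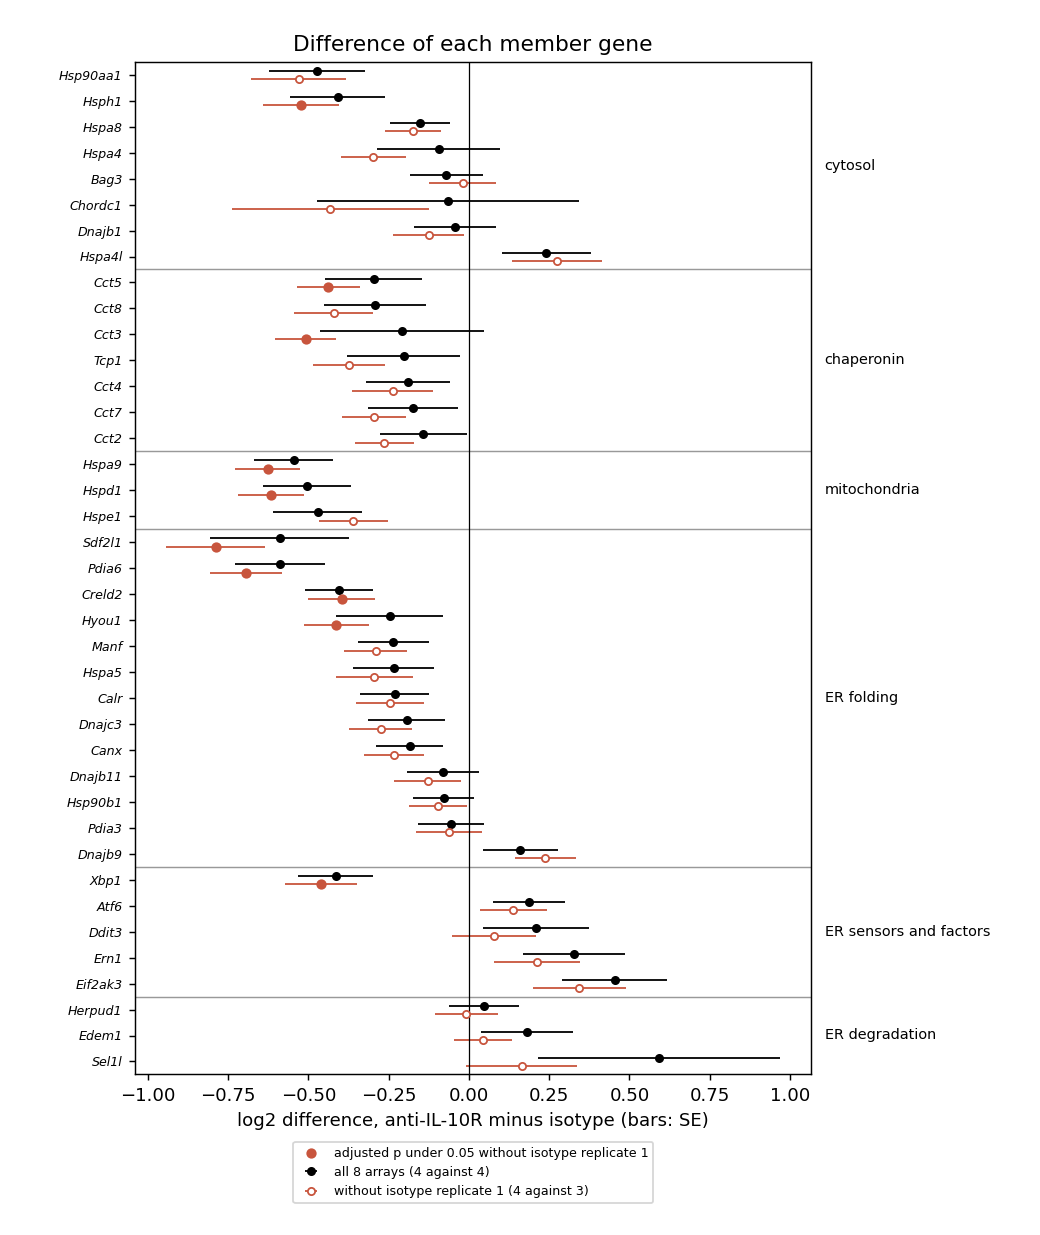
Log2 difference, anti-IL-10R minus isotype (horizontal axis), of each of the 39 tested genes with its SE from limma, for all 8 arrays (black) and without isotype replicate 1 (red). Filled red points passed an adjusted p of 0.05, and all 10 lie below 0. No black point passed, and the sensors Eif2ak3, Ern1 and Atf6 lie to the right of 0 while Xbp1 lies to the left.

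Among 16 tested ER folding genes outside the list, Prdx4 fell. Prdx4 encodes the ER peroxiredoxin that uses hydrogen peroxide to drive disulfide formation. It read 6.91, 7.76, 7.25 and 7.23 on the isotype arrays and 6.32, 6.40, 6.24 and 6.08 on the treated arrays. All treated arrays lay far below the isotype arrays, with a difference of -1.03 ± 0.17 and an adjusted p of 0.0255. Leaving out any 1 of the treated arrays, or isotype replicate 3 or 4, gave adjusted p of 0.0632 to 0.0941, and adding the mean of the B cell markers to the fit 0.147, which ended the call, while the difference stayed between -1.29 and -0.87. Of these 16 genes 11 were lower, with a median of -0.03, and 1 was called lower and 0 higher. Fkbp2, an ER prolyl isomerase, had means of 9.88 and 9.42 and a difference of -0.46 ± 0.12 (adjusted p 0.0815), and P4hb, the founding disulfide isomerase, differed by -0.33 ± 0.16. Genes that carry proteins into the ER and trim and glycosylate them there had a median of -0.09, with 20 of 24 lower and 0 called. Without isotype replicate 1 this median was -0.20 with 1 called lower, and that of the 16 folding genes was -0.14 with 4 called lower. With all arrays, 0 of the 24 had an unadjusted p under 0.05.

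Many ER folding genes hold the ER stress element in their promoters, CCAAT and CCACG with 9 free bases between them, which ATF6 binds together with the factor NF-Y. It was found on either strand in 0.119% of all promoter windows of the table. On the list it was in the windows of 7 of 19 ER genes with a window and of 0 of the cytosolic, chaperonin and mitochondrial genes. The 8 elements (2 in Hsp90b1) are shown since they are what these genes share by sequence. Each is printed 5′ to 3′ on the strand that reads CCAAT first, with the fixed letters in capitals and the 9 free bases in lower case.
Pdia6, chr12:17266491-17266509, plus strand: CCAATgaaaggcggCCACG
Creld2, chr15:88819520-88819538, minus strand: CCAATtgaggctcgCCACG
Hspa5, chr2:34772025-34772043, plus strand: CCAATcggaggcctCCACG
Calr, chr8:84847075-84847093, plus strand: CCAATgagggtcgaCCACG
Canx, chr11:50325800-50325818, minus strand: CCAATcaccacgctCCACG
Dnajc3, chr14:118937827-118937845, plus strand: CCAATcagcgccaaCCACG
Hsp90b1, chr10:86705638-86705656, minus strand: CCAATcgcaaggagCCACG
Hsp90b1, chr10:86705533-86705551, plus strand: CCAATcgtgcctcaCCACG

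Of the 7 genes with an element, Pdia6 and Creld2 separated the groups, against 5.99% of all tested genes lower without overlap, and the other 5 overlapped with differences between -0.23 and -0.08. Without isotype replicate 1 Hspa5, Canx and Dnajc3 separated them too, which made 5 of 7, against 14.2% of all tested genes. The sensors and degradation genes, with mean differences mostly above 0, had no such element where a window was in the table. The element that XBP1 and ATF6 are known to bind, TGACG followed directly by TGG, searched on both strands, was in 0.676% of all windows and in 0 windows of the list, which says only that these letters were not in these windows. The 250 bases before the Pdia6 start are given because Pdia6 had the lowest adjusted p of the ER genes on the list of 46. They lie at chr12:17266339-17266588 on the plus strand of GRCm38.p6, with the fixed letters of the element in capitals, 98 bases before the start.
Pdia6 promoter: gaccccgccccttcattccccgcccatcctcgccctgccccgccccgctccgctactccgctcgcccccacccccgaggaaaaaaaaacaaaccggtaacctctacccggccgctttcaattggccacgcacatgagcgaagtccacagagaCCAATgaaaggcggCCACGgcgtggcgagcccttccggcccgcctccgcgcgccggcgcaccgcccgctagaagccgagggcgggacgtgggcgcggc

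Secretory genes are also strong in antibody-secreting cells, and markers of B-lineage cells were followed beside the ER genes. Of 8 plasma cell markers, 5 were below the filter and 7 were lower with anti-IL-10R. Their mean was 5.50 to 5.72 on the isotype arrays, highest on replicate 1, and 5.33 to 5.45 on the treated arrays, so the groups did not overlap. Jchain, the joining chain of secreted antibodies, was below the filter and had means of 4.39 and 3.77. Derl3 and Fkbp11 on this marker list are also ER genes. Of 12 B cell and leukaemia markers 11 were measured, 8 of them below the filter, and all 11 were lower with anti-IL-10R, with list means of 5.01 to 5.46 and 4.89 to 5.12. The part of plasma cell RNA in the ER differences was not tested. When each array's mean over these B cell markers entered the fit as a covariate, Pdia6 differed by -0.57, Creld2 by -0.39, Xbp1 by -0.34, Hspa9 by -0.51 and Hspd1 by -0.33. With that term limma called 0 genes of the list and 2 of all 12019, against 304 without it, and the adjusted p of Hspa9 and Pdia6 were 0.294 and 0.303. The covariate was itself lower on average with anti-IL-10R, so it and the treatment cannot be fully told apart. The loss of calls does not measure the part of B cell RNA, which was not tested.

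For all 8 tested cytosolic genes of the list the groups overlapped with all 8 arrays. Hsp90aa1, the inducible HSP90, read 8.18, 8.22, 8.54 and 8.46 on the isotype arrays and 8.25, 7.77, 7.74 and 7.74 on the treated arrays. Treated replicate 1 lay with the isotype arrays and the other 3 below them all. The difference was -0.47 ± 0.15 with an adjusted p of 0.122, and -0.53 with 0.0542 without isotype replicate 1. Hsph1, the HSP110 that recharges HSP70, read 9.76, 10.12, 10.35 and 10.18 on the isotype arrays and 9.89, 9.71, 9.69 and 9.49 on the treated arrays. Again 3 of 4 treated arrays lay below all isotype arrays. Hsph1 differed by -0.41 ± 0.15 (adjusted p 0.165), and by -0.52 with an adjusted p of 0.0271 without isotype replicate 1.

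Hspa8, the constitutive HSP70, has 4 rows with its symbol, and these did not give the same size. On the row kept by the rule the difference was -0.15 ± 0.09, with 3 of 4 treated arrays below all isotype arrays. On the other 3 rows it was -0.53 ± 0.11, -0.90 ± 0.30 and -0.95 ± 0.29. In a fit over all 12576 rows past the filter, which called 2.51% of rows, the first of these had an adjusted p of 0.0471. All 4 rows had the same sign, and the size of the difference for Hspa8 is uncertain. On the rows with -0.90 and -0.95, isotype replicate 1 read 10.37 and 10.33, and the other isotype arrays 8.96 to 9.61. These 2 rows read nearly alike on every array, so they may not be separate measures.

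Smaller differences were measured for the remaining cytosolic genes. Hspa4, another HSP110, differed by -0.09 ± 0.19, with isotype replicate 1 at 9.0005 and the other isotype arrays at 9.70 to 9.98, and by -0.30 without it. Hspa4l, its relative, was the 1 tested cytosolic gene above 0, at 0.24 ± 0.14. Dnajb1, the classic HSP40 of the heat shock response, differed by -0.04 ± 0.13, and Bag3, a heat-inducible co-chaperone of HSP70, by -0.07 ± 0.11. Chordc1, an HSP90 co-chaperone, spread widely in both groups (6.49 to 8.40 and 6.71 to 8.10), and its difference was -0.06 ± 0.41.

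The inducible HSP70 genes Hspa1a and Hspa1b and the small heat shock gene Hspb1 were dim. Hspa1a had means of 4.67 ± 0.22 and 5.08 ± 0.24 (SD, n = 4 each) with overlap, and Hspa1b of 4.91 ± 0.46 and 5.01 ± 0.36. In the fit without the filter their adjusted p were 0.27 and 0.889. These genes are near copies, and their promoter windows are identical at 296 of 300 positions, so signal may be shared between their rows. Hspb1 had means of 4.99 ± 0.47 and 4.59 ± 0.19, and its other row differed with the opposite sign (-0.41 against 0.40).

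Of 25 tested cytosolic chaperones and co-chaperones outside the list, 17 were lower, the median was -0.11, and limma called 0, with 4 lower and 2 higher at an unadjusted p under 0.05. Bag2, a co-chaperone of HSP70, read 7.47, 6.93, 7.37 and 7.15 on the isotype arrays and 6.76, 6.47, 6.76 and 6.55 on the treated arrays, with no overlap and a difference of -0.60 ± 0.14 (adjusted p 0.0609). Stip1, which hands clients from HSP70 to HSP90, read 10.30, 10.49, 10.55 and 10.60 on the isotype arrays and 10.25, 9.9996, 10.07 and 9.88 on the treated arrays. Its groups did not overlap either, and the difference was -0.43 ± 0.12 (adjusted p 0.0864). On the higher side, the DNAJ gene Dnajb6 read 7.77, 8.46, 8.40 and 8.39 on the isotype arrays and 8.74, 8.71, 8.75 and 8.70 on the treated arrays. Its groups did not overlap, and the difference was 0.47 ± 0.16 (adjusted p 0.135). Without isotype replicate 1, 4 genes of this set were called lower and the median was -0.17. Of 12 immediate early genes that respond to tissue handling and cell sorting, 8 were lower, the median was -0.09 and 0 were called, with 1 lower and 1 higher at an unadjusted p under 0.05. Dusp1, a phosphatase gene of that set, was the higher one, at 0.67 ± 0.16 (adjusted p 0.0641). The median of the 12 was -0.14 without isotype replicate 1, with 1 called lower and 1, Dusp1, called higher (adjusted p 0.0466). The part of handling in the chaperone differences was not tested.

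The cytosolic chaperonin, the ring complex that folds actin and tubulin, gave results that depended on isotype replicate 1. All 7 subunit genes of the list had differences below 0, from -0.30 to -0.14 with a median of -0.20, and in none were the groups apart. For 6 of the 7 isotype replicate 1 was the lowest isotype array, and for 5 it lay below all 4 treated arrays. Without it the median was -0.37, against -0.01 over all tested genes. Then 6 of 7 were lower without overlap, against 14.2% of all tested genes. Cct3 read 7.58, 8.86, 8.74 and 8.71 on the isotype arrays and 8.16, 8.36, 8.28 and 8.25 on the treated arrays. The treated arrays were tight and the isotype arrays lay on both sides of them. Its difference was -0.21 ± 0.26 (adjusted p 0.695), and -0.51 ± 0.09 with an adjusted p of 0.0147 without isotype replicate 1. Cct5 read 10.04, 10.68, 10.44 and 10.68 against 10.12, 10.19, 10.15 and 10.18, a difference of -0.30 ± 0.15 (adjusted p 0.313), and -0.44 with 0.0274 without that array. The remaining subunits, Cct8, Tcp1, Cct4, Cct7 and Cct2, differed by -0.29, -0.20, -0.19, -0.17 and -0.14 with SEs of 0.13 to 0.18. Outside the list, 7 of 10 tested chaperonin, prefoldin and tubulin cofactor genes were lower, with a median of -0.06 and 0 called (1 lower and 1 higher at an unadjusted p under 0.05). The higher one was the prefoldin gene Pfdn5, whose groups did not overlap, at 0.48 ± 0.15 (adjusted p 0.116). Without isotype replicate 1 that median was -0.18 and 2 were called lower. These were the subunit gene Cct6a, at -0.38 ± 0.30 with all arrays and -0.73 (adjusted p 0.0143) without it, and the prefoldin gene Pfdn6, at -0.38 ± 0.15 and -0.50 (0.0249).

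**Figure D4:**
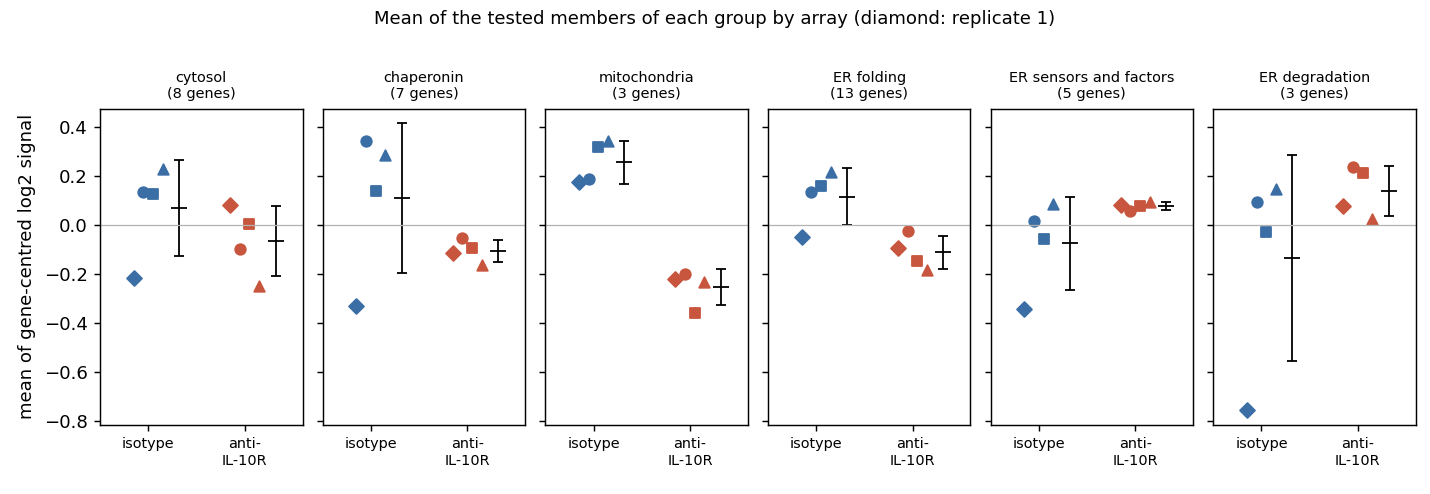
Mean over the genes of each compartment or role, each gene centred on its own mean over the 8 arrays (vertical axis, log2), for each of the 4 isotype and 4 anti-IL-10R arrays. The mitochondrial means separate the groups (0.17 to 0.34 against -0.36 to -0.20). Isotype replicate 1 is the lowest isotype array in each panel. It lies at -0.22 in the cytosol, -0.33 in the chaperonin, -0.05 in ER folding, -0.35 in sensors and factors and -0.76 in ER degradation.

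The same per-array means show which compartments overlapped between the groups. For the cytosolic genes the 4 isotype arrays ran from -0.22 (replicate 1) to 0.23 and the treated arrays from -0.25 to 0.08. For the chaperonin genes they ran from -0.33 (replicate 1) to 0.34 and from -0.17 to -0.06. Both groups overlapped in these 2 compartments. The ER folding genes ran from -0.05 (replicate 1) to 0.22 on the isotype arrays and from -0.18 to -0.03 on the treated arrays, so only replicate 1 reached the treated arrays. The sensors and factors were higher on average with anti-IL-10R, from -0.35 (replicate 1) to 0.08 against 0.06 to 0.09. Apart from replicate 1, the isotype arrays ran from -0.06 to 0.08 for this role. The median differences were -0.08 for the cytosol, -0.20 for the chaperonin, -0.50 for mitochondria and -0.08 for all 21 ER genes, and without isotype replicate 1 -0.24, -0.37, -0.62 and -0.13. Differences between these medians were not tested, and the compartments hold 8, 7, 3 and 21 tested genes.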

How the data were processed

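The values are the authors' deposited log2 signals, 1 column per array, and the submitters' processing notes name Affymetrix Power Tools. Which version, summary method and normalization were used is not given in the sources used here. Of 41345 rows, 23521 carry 1 gene symbol in the platform annotation, 1814 carry several and 16010 none. Samples were grouped by their descriptions, 4 arrays each, a number that sets the precision. No 2 arrays were identical.

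Group differences were fitted by lmFit and eBayes of limma 3.58.1 under R 4.3.3 (two-sided, Benjamini-Hochberg over all 12019 tested genes, threshold 0.05, statmod 1.5.0 for array weights). On simulated data for 12019 genes, 200 of them changed, the fit recovered 72% of the 2-fold and 97% of the 4-fold changes, with 4.52% of 177 calls false. The noise was drawn independently for each gene and array, so no array stood apart as isotype replicate 1 does. Changes under 2-fold were not simulated. These shares therefore do not carry over to the smaller differences measured for the list. Any gene of the list could be named. Of the other gene and marker lists, those past the threshold were named, and otherwise up to 4 with the smallest p. The members and lists were chosen with earlier results of these data known. Promoter windows (250 bases before to 50 after a start) and gene names come from RefSeq, GRCm38.p6, and the motif searches covered both strands. The alternatives were other filters, normalizations, variance models, rows per gene, replicate blocks, a B cell covariate and each array left out. Protein sequences were not used here.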

Additional observations from a re-analysis of the deposited data

Results flagged for a closer look

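For each of the 42 measured genes, the 4 arrays of a group were searched for 1 array far from the other 3, which made 84 groups, and 10 stood out. Chance alone sets apart about 1 in 20 groups. Isotype replicate 1 was the array in 6 of the 10. It lay far below the other isotype arrays for Cct3 (7.576, nearest 8.709), Cct8 (9.245, nearest 9.732), Sdf2l1 (8.148, nearest 8.912) and Edem1 (9.956, nearest 10.48). It lay far above them for Hspe1 (10.14, nearest 9.731) and for the dim Hspb1 (5.693, nearest 4.793). Isotype replicate 2 was high for the dim Hspa1a (5.005, nearest 4.586). In the treated group, replicate 1 was high for Hsp90aa1 (8.249, nearest 7.771), replicate 3 low for Hspe1 (9.107, nearest 9.391) and replicate 4 low for Cct8 (9.038, nearest 9.417).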

How the results depend on the processing

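Of 739 values of single genes under the alternatives, 689 kept their direction and side of the threshold, 43 newly passed it and 7 changed sign, in 3 genes: Herpud1 (-0.007282 with quantile normalization, -0.004436 with array weights, -0.007391 to 0.09102 with each array left out), Chordc1 (-0.43 to 0.21 with each array left out) and Hspa4 (-0.297 to 0.02855). The cause was not tested. Genes of the list called, 0 with all 8 arrays, were 3 with the stricter filter (6636 genes), 5 with quantile normalization, 1 with the mean of all rows, 1 with a trended and robust variance, 12 with array weights, 6 at an adjusted p under 0.10, and 0 to 10 with each array left out (10 without isotype replicate 1 and 0 without any other). All genes called, 304, were 145 without the filter, 460 with the stricter one, 631 after quantile normalization, 117 with centred arrays, 1469 with array weights, 2 with the B cell covariate, 896 at 0.10, and 3 (without isotype replicate 4) to 1112 (without isotype replicate 1) with each array left out. The mean of all rows gave 311 genes called, 161 of them lower. A trended and robust variance gave 422, 197 of them lower. In both settings the 1 gene of the list called was Hspa9, out of 39 tested. Such a single call is too few to set the list apart from all genes. With the stricter filter 3 of 37 tested genes of the list were called, against 460 of 6636. The mitochondrial median, -0.50, was -0.62 with array weights and -0.62 to -0.49 with each array left out.

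With the replicate number as a block, 0 genes of the list and 4 of all genes were called. Deviations of same-numbered arrays correlated at -0.16 to 0.117, and 1 of 4 arrays in each group correlated best with its own number. In the main fit the numbers only named the samples. With 4 arrays per group, and isotype replicate 1 in its group's mean, these correlations cannot exclude a pairing. Blocking on the number in the sample title, which 6 arrays share across the groups, called 4 of the list and 503 of all genes, with a mitochondrial median of -0.59. The same 6 arrays with no block, chosen after seeing the data, called 7 and 825, with -0.59.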
